A study of Mus musculus with 6 samples.

Results

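Of the 41126 genes in the all-gene expression table, 54 were taken by name as the TGF-β and BMP pathway of dermal fibroblasts. They are TGF-β ligands, activin subunits, BMP and GDF ligands, their receptors and coreceptors, secreted antagonists, latent TGF-β binding proteins, Smads, Id genes, Tgfbi and Skil. All 54 were matched to the table by gene identifier, and 52 were among the 15462 genes with enough fragments for testing. Bmp7 and Gdf5 had too few.

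The study asked how gene expression changes in mouse dermal fibroblasts when β-catenin, the effector of canonical Wnt signalling, is stabilized in culture. Fibroblasts came from the ventral skin of P4 pups (postnatal day 4, strains CD1 and C57Bl6) and were grown with 10% fetal bovine serum. The 3 gain of function (GOF) cultures were infected with adenovirus carrying Cre recombinase and are labelled AdCre; Ctnnb1Δex3/+, having lost exon 3 of 1 allele of Ctnnb1, the exon with the phosphorylation sites that mark β-catenin for degradation. The 3 control cultures received adenovirus carrying GFP and are labelled AdGFP; +/+, although the study's methods describe the controls as carrying the same unrecombined allele. The treatment label, the same for all 6 cultures, gives adCre at 366 to 500 MOI for 6 hours without serum, and the source labels separate AdCre from AdGFP. The study's methods give 366 to 500 MOI for the Cre virus and 366 MOI for the GFP virus. The cultures came from 4 animals: Control 2 and GOF 0 shared an animal, as did Control 0 and GOF 2, and Control 1 and GOF 1 had no partner. Expression of Cre against GFP, any difference in viral dose and loss of exon 3 cannot be told apart in this design.

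Ligands of the TGF-β superfamily bind pairs of type I and type II serine/threonine kinase receptors, which phosphorylate receptor Smads. TGF-β and activin act mainly through Smad2 and Smad3, and BMPs through Smad1, Smad5 and Smad9, with Smad4 as the shared partner and Smad6 and Smad7 as inhibitors. In skin, TGF-β drives fibroblasts to make matrix, BMP signalling and its antagonists time hair follicle growth, and activin is known from wound repair.

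The libraries held 35980831 to 42834467 fragments assigned to genes. Axin2, a direct β-catenin target, was at 0.152 ± 0.0218 FPKM (fragments per kilobase of transcript, scaled to library size; mean ± SD, n = 3) in control and at 17.5 ± 2.66 in GOF, while Ctnnb1 itself was at 267 ± 16.3 and 263 ± 28.8. Its summed expression does not show the removed exon. All 8 fibroblast markers were above 1 FPKM, with a sum of 2102 to 2752 in control and 2316 to 2928 in GOF. Within that sum Col1a2 was called lower (867 ± 250 to 387 ± 133 FPKM) and Vim was higher past the adjusted p alone (798 ± 74.6 to 1339 ± 153 FPKM), and with the animal as a block Lum and Pdgfra were also called lower, with log2 fold changes of -2.42 and -1.18. The 8 keratinocyte markers summed to at most 0.630 FPKM in any library. In bulk RNA, fewer cells of a type and less RNA per cell cannot be told apart, and the p-values below measure the spread between these cultures only.

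Of the 15 members past the thresholds set out below, 11 encode secreted proteins, and they differed in both directions. GOF cultures had higher RNA for Tgfb2, both activin subunits, Bmp2 and Gdf6, and also for the antagonists Fst, Nog, Grem1 and Bambi. They had lower RNA for Bmp3, Gdf10, the receptor Acvr2a, the coreceptor Tgfbr3, Fstl1 and Id4. No receptor kinase gene rose past the thresholds, and no Smad was past them in either direction.

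A gene was called when its fold change was over 2 and its adjusted p under 0.05 in edgeR's quasi-likelihood test, adjusted over the 15462 genes tested. The test took the cultures as independent, although some shared an animal. Of the 52 tested members, 15 were called, 28.8%, against 12.3% of all genes tested. The 9 called higher were 17.3% of the members, against 6.69% of all genes, and the 6 called lower were 11.5%, against 5.64%. A further 6 members passed the adjusted p with a fold change of 2 or less, where 8.89% of all genes did, so that 21 members passed the adjusted p in all, 40.4% against 21.2% of all genes, and 31 did not. Control and GOF levels did not overlap for 28 members, 53.8%, against 39.5% of all genes, with 14 above control (20.3% of all genes) and 14 below (19.2%). The median log2 fold change of the members was 0.03 and that of all genes tested was -0.02, while the medians of its absolute size were 0.60 and 0.34. Ligand genes held 7 of the 15 calls among 13 tested and antagonists 5 among 9, while the type I receptors and the Smads held 0 among 6 and 0 among 8; at an adjusted p under 0.05 alone, 3 type I receptors and 1 Smad passed.

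**Figure D1:**
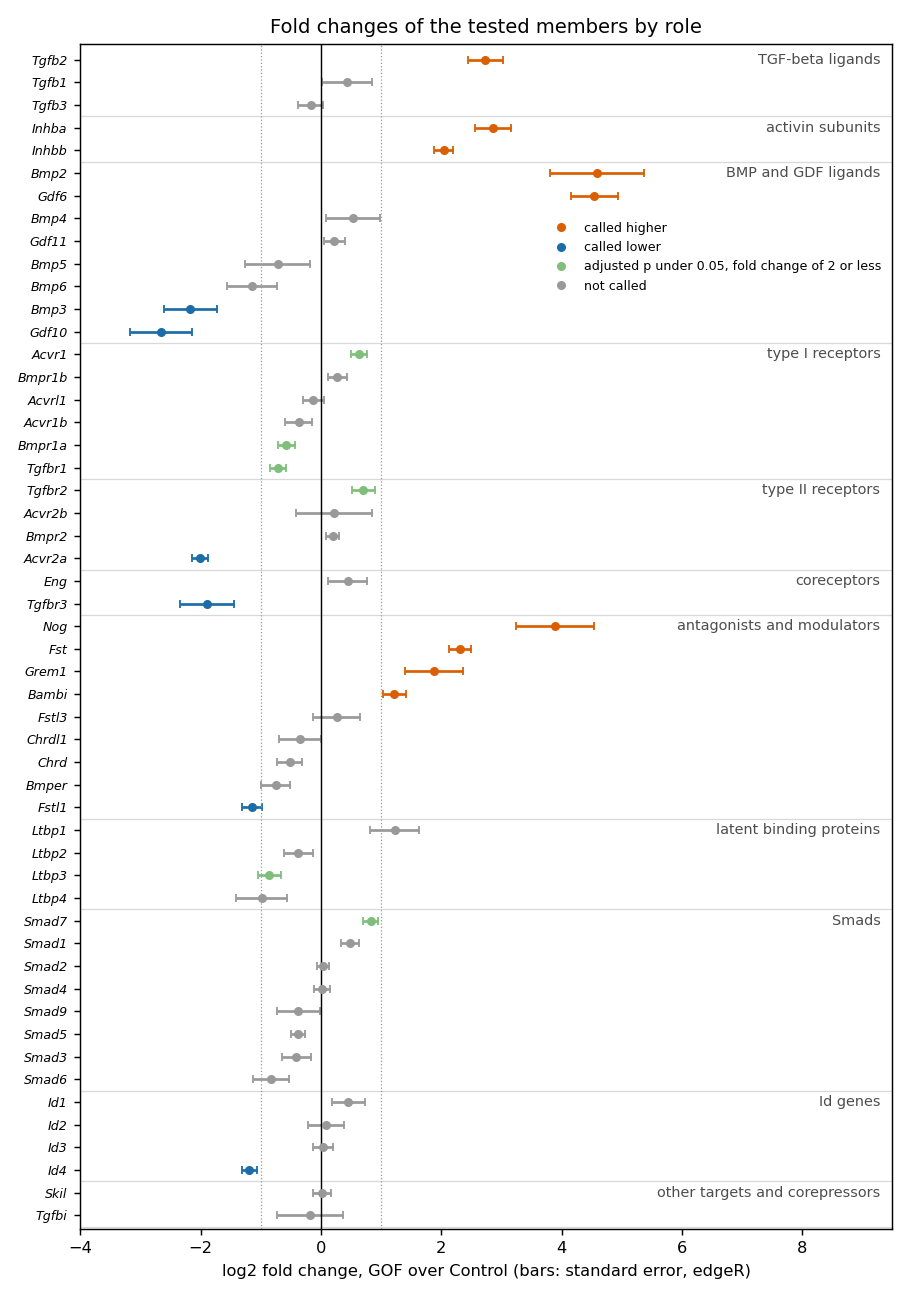
The plot shows the log2 fold change of GOF over control (x axis) for the 52 tested members (y axis, grouped by role), with bars for the edgeR standard error and dotted lines at a fold change of 2. Orange and blue points are the 9 members called higher and the 6 called lower, which lie mainly among ligands and antagonists, while the Smads lie between -0.83 and 0.83.

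Among the TGF-β ligands, Tgfb2 (ENSMUSG00000039239, chr1:186622792-186705989, minus strand, GENCODE M21 on GRCm38) was the member that rose. Its level was 3.04, 3.0 and 2.25 FPKM in Control 0, 1 and 2, and 17.3, 11.4 and 27.4 in GOF 0, 1 and 2. The lowest GOF library was well above the highest control, and the groups did not overlap, with a log2 fold change of 2.73 (SE 0.29, adjusted p = 0.0011). Tgfb3 was the ligand of this group with the most RNA in control, at 34.7 to 36.4 FPKM, and in GOF it ranged from 22.4 to 38.8 with a log2 fold change of -0.17 (adjusted p = 0.60), a sign that changed when GOF 1 was left out. Tgfb1 stayed low in both groups, at 1.45 to 2.46 FPKM in control and 1.48 to 4.18 in GOF (log2 fold change 0.43, adjusted p = 0.50). Per length, Tgfb2 remained below Tgfb3 in every GOF library.

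Both activin subunit genes rose. Inhba (ENSMUSG00000041324, chr13:16011851-16031621, plus strand), which encodes the βA subunit that forms activin A as a dimer, was at 11.5, 12.7 and 13.2 FPKM in control and at 138, 80.5 and 57.5 in GOF. The controls lay within a narrow range, the GOF libraries were spread widely, and every GOF library was above every control, with a log2 fold change of 2.86 (SE 0.31, adjusted p = 0.0011). Inhbb (ENSMUSG00000037035, chr1:119415465-119422248, minus strand), the βB subunit gene, was at 8.60, 9.68 and 10.9 FPKM in control and at 44.3, 49.5 and 30.9 in GOF. Again the groups did not overlap, with a log2 fold change of 2.04 (SE 0.16, adjusted p = 3.5e-04). For both subunits GOF 2 was the lowest GOF library, whereas for Tgfb2 it was the highest.

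The 250 bases before the RefSeq gene start (GRCm38.p6) are shown for Tgfb2, Inhba and Inhbb, the ligand genes that rose and have a promoter in the table, and for Acvr2a, the activin receptor that fell. Capitals mark a Tcf/Lef word (searched as CTTTG with an A or a T at each of the next 2 positions) or the Smad3 and Smad4 word CAGACA, and both strands were searched. Each is printed 5′ to 3′ on the strand of the gene.
Tgfb2, chr1:186705990-186706239, minus strand: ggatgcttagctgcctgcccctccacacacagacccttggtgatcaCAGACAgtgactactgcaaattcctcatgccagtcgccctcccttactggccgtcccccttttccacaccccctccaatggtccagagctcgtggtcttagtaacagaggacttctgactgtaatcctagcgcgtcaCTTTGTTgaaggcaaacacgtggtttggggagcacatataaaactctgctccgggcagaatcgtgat
Inhba, chr13:16011601-16011850, plus strand: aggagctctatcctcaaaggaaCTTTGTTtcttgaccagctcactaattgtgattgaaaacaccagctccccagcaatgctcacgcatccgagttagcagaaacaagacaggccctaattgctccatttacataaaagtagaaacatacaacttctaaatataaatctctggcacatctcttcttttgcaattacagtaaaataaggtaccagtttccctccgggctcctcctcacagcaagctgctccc
Inhbb, chr1:119422249-119422498, minus strand: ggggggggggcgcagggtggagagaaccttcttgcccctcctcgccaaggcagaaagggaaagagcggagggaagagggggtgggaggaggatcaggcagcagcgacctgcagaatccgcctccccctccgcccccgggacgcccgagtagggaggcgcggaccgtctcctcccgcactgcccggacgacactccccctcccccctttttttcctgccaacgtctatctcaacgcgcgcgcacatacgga
Acvr2a, chr2:48813859-48814108, plus strand: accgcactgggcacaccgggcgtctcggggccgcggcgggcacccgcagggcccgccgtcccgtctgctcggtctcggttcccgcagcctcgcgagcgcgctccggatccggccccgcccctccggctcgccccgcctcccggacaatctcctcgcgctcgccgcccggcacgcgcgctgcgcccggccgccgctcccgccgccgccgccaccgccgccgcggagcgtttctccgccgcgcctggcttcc

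The Tcf/Lef word began 67 bases before the start of Tgfb2 and 228 bases before that of Inhba, and CAGACA 204 bases before that of Tgfb2. The windows of Inhbb and Acvr2a held none of the searched words, which says only that these letters are not in them. The windows differ in base composition, with 43.2% G and C for Inhba, 53.6% for Tgfb2, 68.0% for Inhbb and 82.0% for Acvr2a. Among the 27025 genes with a promoter in the table, 14.9% held a Tcf/Lef word, 17.1% held CAGACA and 9.54% held the BMP Smad word GGCGCC. Of the 37 tested members with a promoter there, 5, 4 and 9 held them, and of the 8 called members there, 2, 1 and 2. A match is a description of letters, not a binding site.

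The BMP and GDF ligands were split. Gdf6 (ENSMUSG00000051279, chr4:9844372-9862345, plus strand), a BMP family ligand known from joint and skull development, was at 0.64, 1.46 and 0.64 FPKM in control and at 26.3, 16.4 and 22.5 in GOF. All GOF libraries were far above all controls, with a log2 fold change of 4.55 (SE 0.39, adjusted p = 4.5e-04). Bmp2 (ENSMUSG00000027358, chr2:133552159-133562885, plus strand), an osteogenic BMP, had 3, 0 and 5 fragments in control and 51, 113 and 41 in GOF, which is at most 0.0348 FPKM and 0.286 to 0.822 FPKM. It was close to undetected in control and low in GOF, and the fitted log2 fold change of 4.58 (SE 0.78, adjusted p = 0.0065) rests on few control fragments. It was 3.99 without Control 1, 5.31 without Control 2, 3.97 without GOF 1, and 0.53 on the log2(FPKM + 1) scale with limma, below a fold change of 2. With the animal as a block, the log2 fold change was 3.39 for Bmp2 and 5.24 for Gdf6, both still called.

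The BMP and GDF ligands that fell were Gdf10 and Bmp3. Gdf10 (ENSMUSG00000021943, chr14:33923587-33937983, plus strand), also named Bmp3b, was at 4.55, 12.9 and 17.4 FPKM in control and at 1.85, 2.86 and 1.02 in GOF. Control 0 was well below the other controls, yet above every GOF library. The log2 fold change was -2.66 (SE 0.52, adjusted p = 0.011), and without GOF 0 it was -2.64 with an adjusted p of 0.055. Bmp3 (ENSMUSG00000029335, chr5:98854415-98884396, plus strand), a family member that opposes osteogenic BMPs, was at 0.40, 1.11 and 0.92 FPKM in control and at 0.24, 0.14 and 0.16 in GOF. Control 0 was again the lowest control and the groups did not overlap. The log2 fold change was -2.17 (SE 0.44, adjusted p = 0.012), and on the log2(FPKM + 1) scale with limma it was -0.59.

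The other ligands of this group were not called. Gdf11 had the most RNA of them, at 7.25 to 8.98 FPKM in control and 7.43 to 11.0 in GOF (log2 fold change 0.22, adjusted p = 0.41). Bmp6 was at 0.759 to 1.53 FPKM in control and 0.358 to 0.759 in GOF (log2 fold change -1.15, adjusted p = 0.089), and DESeq2 called it lower (adjusted p = 0.036). Bmp6 shares 5.74% of its exon bases with Txndc5, a highly expressed gene on the opposite strand. Bmp4 and Bmp5 stayed under 2 FPKM in every library, with log2 fold changes of 0.53 and -0.72 (adjusted p = 0.44 and 0.39); 46.7% of the exon bases of Bmp5 also lie in an antisense gene. Bmp4 changed sign, to -0.10, when GOF 2 was left out.

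**Figure D2:**
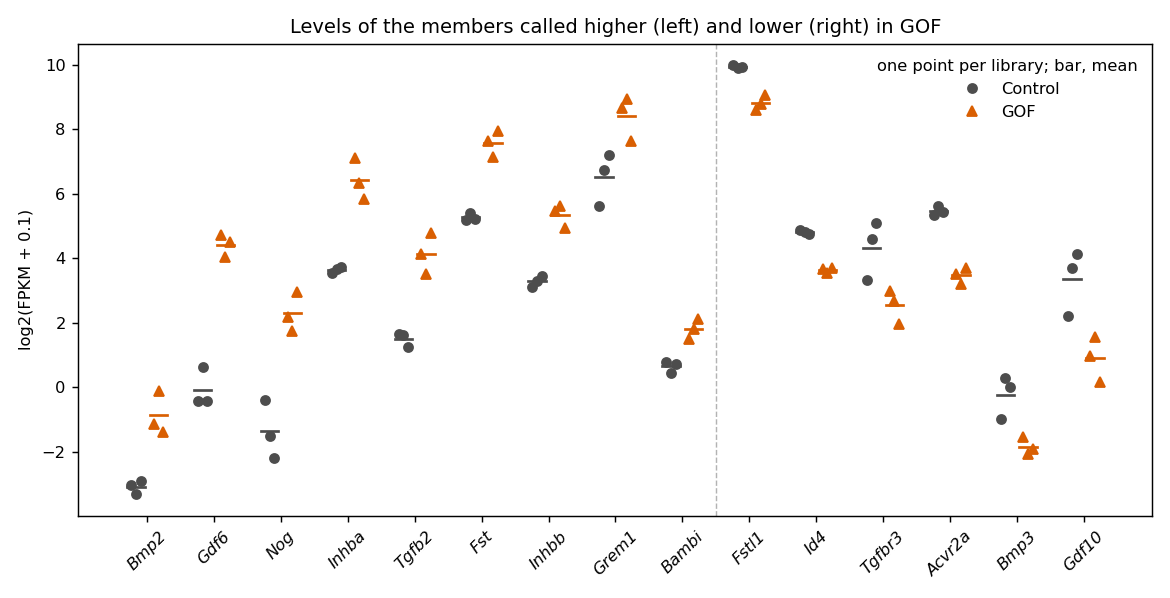
The plot gives log2(FPKM + 0.1) on the y axis for the 15 called members on the x axis, with circles for the control libraries, triangles for the GOF libraries and a bar for the mean of 3. The groups do not overlap for any of the 15, and the members run from Bmp2, at most 0.0348 FPKM in control, to Fstl1, near 1000 FPKM.

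Of the 12 receptor and coreceptor genes, 2 were called, 16.7% against 12.3% of all genes tested. Both were lower, where 5.64% of all genes were called lower. Acvr2a (ENSMUSG00000052155, chr2:48814109-48903269, plus strand), a type II receptor for activins and some BMPs, was at 40.8, 49.2 and 43.2 FPKM in control and at 11.4, 9.05 and 12.997 in GOF. Both groups were tight and far apart. The log2 fold change was -2.01 (SE 0.13, adjusted p = 1.8e-04), the smallest p of any member and rank 34 among all genes tested. Of its exon bases, 7.84% also lie in Orc4 on the opposite strand, and whether the authors' counting used the strand is not given in the sources used here. Acvr2b, the related receptor, was at most 0.215 FPKM in any library, so Acvr2a had far more RNA per length than Acvr2b in both groups.

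Tgfbr3 (ENSMUSG00000029287, chr5:107106570-107289629, minus strand), betaglycan, presents TGF-β2 to the signalling receptors. Its level was 9.96, 23.9 and 33.9 FPKM in control and 7.87, 6.30 and 3.82 in GOF. Control 0 was close to the highest GOF library and the other controls were well above it, so the groups were apart by a small gap. The log2 fold change was -1.89 (SE 0.45, adjusted p = 0.023). The adjusted p passed 0.05 when Control 1, Control 2, GOF 0, GOF 1 or GOF 2 was left out, at 0.061, 0.062, 0.053, 0.068 and 0.053, with log2 fold changes from -2.15 to -1.51. Eng, the other coreceptor, was at 3.86 to 6.29 FPKM in control and 4.53 to 10.5 in GOF (log2 fold change 0.44, adjusted p = 0.37), and without GOF 0 it was at -0.0032.

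Among the signalling receptors the differences were smaller. Tgfbr1, the TGF-β type I receptor, was at 15.3, 18.8 and 17.2 FPKM in control and at 9.25, 10.9 and 11.8 in GOF (log2 fold change -0.71, adjusted p = 0.0089). Its partner Tgfbr2 was at 24.9, 35.2 and 42.7 FPKM in control and at 64.4, 51.4 and 54.1 in GOF (log2 fold change 0.71, adjusted p = 0.040). The groups did not overlap for either gene, and the differences had opposite signs. For Tgfbr2 the adjusted p was above 0.05 without Control 1 (0.11), GOF 0 (0.14), GOF 1 (0.069) or GOF 2 (0.064), and also with library totals (0.068) and upper-quartile normalization (0.052).

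The BMP type I receptors showed a similar pair of small differences. Bmpr1a, the receptor gene with the most RNA in control, was at 46.0, 55.2 and 58.1 FPKM there and at 34.0, 37.5 and 37.1 in GOF (log2 fold change -0.58, adjusted p = 0.026). Acvr1, which encodes the type I receptor ALK2, was at 7.52, 5.74 and 6.62 FPKM in control and at 10.1, 9.78 and 10.1 in GOF (log2 fold change 0.63, adjusted p = 0.015). Each difference was larger than the spread within the groups and under a fold change of 2. The adjusted p of Bmpr1a was above 0.05 without Control 1 (0.098), Control 2 (0.094), GOF 0 (0.10) or GOF 2 (0.067). That of Acvr1 was above it without Control 1 (0.081), Control 2 (0.061) or GOF 0 (0.060), and with the animal as a block (0.058).

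The remaining receptors, Bmpr1b, Acvr1b, Acvrl1, Bmpr2 and Acvr2b, overlapped between the groups, with log2 fold changes from -0.37 to 0.27 and adjusted p of 0.25 or more. Acvrl1, known mainly from endothelium, was at 12.0 to 19.99 FPKM here, and its log2 fold change of -0.13 changed sign without GOF 1.

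Of the 9 antagonists and modulators, 4 were called higher and 1 lower, 44.4% and 11.1% against 6.69% and 5.64% of all genes. Fst (ENSMUSG00000021765, chr13:114452290-114458951, minus strand), follistatin, which binds and neutralizes activins, was at 36.5, 42.2 and 36.9 FPKM in control and at 197, 142 and 247 in GOF. The GOF libraries were all several fold above the controls (log2 fold change 2.31, SE 0.18, adjusted p = 3.5e-04). Fst thus rose together with the subunits Inhba and Inhbb. The FPKM of Fst over the summed FPKM of Inhba and Inhbb was 1.75 ± 0.188 in control (SD, n = 3) and 1.66 ± 0.990 in GOF, with 1.08, 1.09 and 2.80 in GOF 0, 1 and 2. The GOF values lay on both sides of the controls (exact two-sided permutation p = 1.0). For Acvr2a over the same sum, the ratio was 2.01 ± 0.204 in control and 0.0931 ± 0.0469 in GOF, a separation that the opposite changes of these genes already fix.

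**Figure D3:**
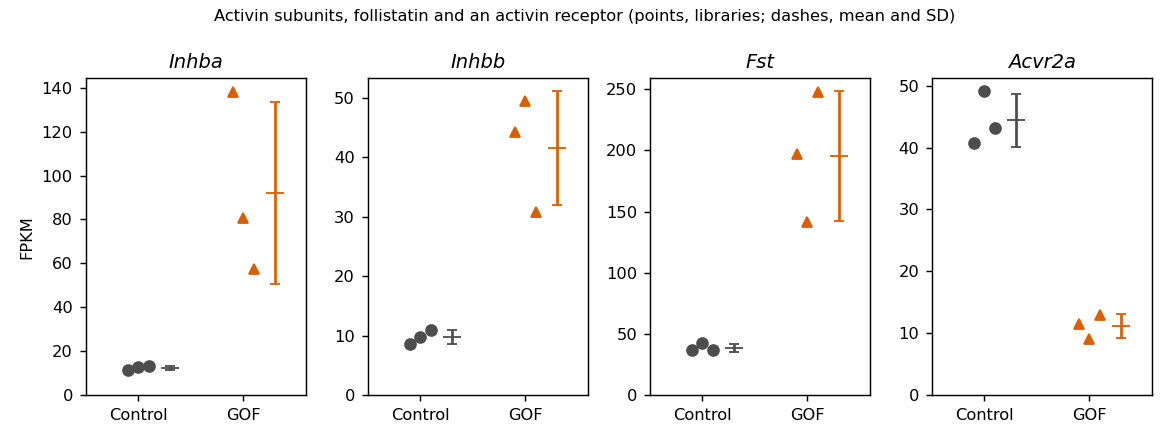
The panels show FPKM (y axis, from 0) of Inhba, Inhbb, Fst and Acvr2a in the 3 control libraries (circles) and the 3 GOF libraries (triangles), with the mean and SD beside them. Inhba, Inhbb and Fst are above control in every GOF library, and Acvr2a is below it, at 9.05 to 12.997 against 40.8 to 49.2 FPKM.

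Nog (ENSMUSG00000048616, chr11:89300638-89302332, minus strand), noggin, and Grem1, gremlin 1, both bind BMPs and keep them from their receptors. Nog was at 0.66, 0.25 and 0.12 FPKM in control and at 4.41, 3.22 and 7.71 in GOF. It was low in control and well above it in every GOF library, with a log2 fold change of 3.89 (SE 0.64, adjusted p = 0.0059), or 4.80 without Control 0. Grem1 (ENSMUSG00000074934, chr2:113746164-113758646, minus strand) was already abundant in control, at 49.5, 106 and 146 FPKM, and was at 407, 489 and 197 in GOF. The lowest GOF library, GOF 2, was above the highest control, Control 2, and both groups varied several fold. The log2 fold change was 1.88 (SE 0.48, adjusted p = 0.029), and without Control 1, GOF 0 or GOF 1 the adjusted p was 0.083, 0.092 and 0.088.

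Bambi (ENSMUSG00000024232, chr18:3507923-3516404, plus strand), a membrane pseudoreceptor that dampens TGF-β and BMP signals, was at 1.62, 1.26 and 1.54 FPKM in control and at 2.70, 3.41 and 4.25 in GOF. The groups did not overlap (log2 fold change 1.22, SE 0.19, adjusted p = 0.0046). Fstl1 (ENSMUSG00000022816, chr16:37776873-37836514, plus strand), a follistatin-related secreted glycoprotein, had by far the most RNA of the members in control, at 1009, 964 and 972 FPKM. It was at 391, 444 and 530 FPKM in GOF, where Grem1 was above it in GOF 0 (407) and GOF 1 (489). The controls agreed closely and lay far above the GOF libraries, with a log2 fold change of -1.15 (SE 0.17, adjusted p = 0.0039). Ranked by level among the genes tested, Fstl1 was in the top 0.569% in control and the top 1.27% in GOF, so it remained abundant after its fall. The follistatin family members thus differed in direction, with Fst higher, Fstl1 lower and Fstl3 at a log2 fold change of 0.26 (adjusted p = 0.68), whose sign changed without GOF 2; 47.3% of the exon bases of Fstl3 also lie in Prss57 on the opposite strand.

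The chordin family and Bmper were not called. Chrd was at 1.95 to 2.70 FPKM in control and 1.47 to 1.93 in GOF (log2 fold change -0.52, adjusted p = 0.12), and Chrdl1 stayed under 0.3 FPKM. Bmper, a chordin-like BMP modulator, was at 6.14 to 8.16 FPKM in control and 3.25 to 6.05 in GOF (log2 fold change -0.75, adjusted p = 0.063), and without GOF 2 it was at -1.05 with an adjusted p of 0.0094.

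Several latent TGF-β binding proteins, though not all, tether the inactive ligand to the matrix. None of the 4 was called by edgeR with TMM and its filter on low counts, against 12.3% of all genes. Ltbp1 was at 7.50, 14.1 and 23.3 FPKM in control and at 50.5, 26.0 and 30.7 in GOF. The groups did not overlap, with Control 2 close below GOF 1, and the log2 fold change was 1.23 (SE 0.41, adjusted p = 0.070). With the animal as a block it was 1.51 with an adjusted p of 0.0039, past both thresholds. It was also past them without Control 2 (1.69, adjusted p = 0.027), by DESeq2 (1.24, adjusted p = 0.0077) and with no filter on low counts (1.23, adjusted p = 0.032). Ltbp3 was at 3.65 to 5.89 FPKM in control and 2.20 to 2.98 in GOF (log2 fold change -0.86, adjusted p = 0.018), or 0.065 without GOF 0 and 0.051 without GOF 2. For Ltbp2 and Ltbp4 the log2 fold changes were -0.38 and -0.99 (adjusted p = 0.32 and 0.14).

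**Figure D4:**
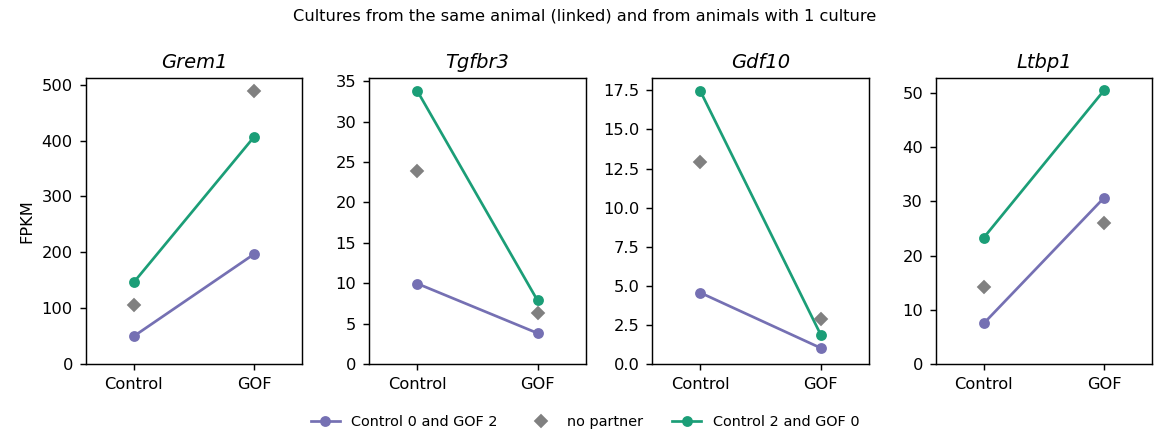
The panels show FPKM (y axis, from 0) of Grem1, Tgfbr3, Gdf10 and Ltbp1 in each culture, with lines joining the control and GOF cultures of the same animal and diamonds for Control 1 and GOF 1, which have no partner. For these members the libraries varied widely within a group, from 49.5 to 146 FPKM for Grem1 in control, and since the groups do not overlap the direction of the lines is fixed.

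Where the groups do not overlap, as for the 15 called members, the cultures of an animal must differ in the direction of the group difference, so the within-animal values give sizes and no further support. For Grem1 the log2 ratio of GOF over control, on FPKM + 0.1, was 1.48 in the animal of Control 2 and GOF 0 and 1.99 in the animal of Control 0 and GOF 2. For Tgfbr3 it was -2.09 and -1.36, for Gdf10 -3.17 and -2.06, and for Ltbp1 1.11 and 2.02. Tgfb1 and Id1, which were not called, went opposite ways in the animals, with ratios of 1.46 and -0.70 for Tgfb1 and 1.03 and -0.30 for Id1.

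None of the 8 Smads was past both thresholds, against 12.3% of all genes tested. Of the 8, 4 lay apart between the groups, against 39.5% of all genes. Whether these counts differ from those shares was not tested. Smad2 and Smad4 had log2 fold changes of 0.03 and 0.02 (adjusted p = 0.86 and 0.93), and both turned slightly negative with library totals and with upper-quartile normalization. Smad3 was at 7.29 to 14.8 FPKM in control and 7.21 to 9.10 in GOF (log2 fold change -0.41, adjusted p = 0.28). The BMP Smads Smad1 and Smad5 each lay apart between the groups in opposite directions, with log2 fold changes of 0.48 and -0.38 (adjusted p = 0.061 and 0.055), and Smad9 was under 0.7 FPKM throughout. Without Control 0, Smad3 was at -0.65 with an adjusted p of 0.019 and Smad5 at -0.45 with an adjusted p of 0.026.

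The inhibitory Smads also went opposite ways. Smad7, which TGF-β signalling induces and which blocks receptor Smads, was at 8.17, 7.45 and 6.49 FPKM in control and at 15.3, 12.9 and 11.8 in GOF. The groups did not overlap and the log2 fold change was 0.83 (SE 0.12, adjusted p = 0.0034), short of a fold change of 2. Smad6, the inhibitor more specific to BMP signalling, was at 11.8, 10.9 and 10.0 FPKM in control and at 5.49, 4.59 and 8.52 in GOF (log2 fold change -0.83, adjusted p = 0.091). Its groups did not overlap either, and without GOF 2 the log2 fold change was -1.25 with an adjusted p of 0.0092.

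The Id genes are widely used as readouts of BMP signalling, and 1 of the 4 was called, 25.0% against 12.3% of all genes. Id4 (ENSMUSG00000021379, chr13:48261228-48266026, plus strand) was at 29.4, 28.1 and 26.7 FPKM in control and at 12.5, 11.5 and 12.9 in GOF. Both groups were tight, with a log2 fold change of -1.19 (SE 0.12, adjusted p = 0.0010). Id3, the most abundant of them, was at 151, 125 and 104 FPKM in control and at 130, 138 and 121 in GOF, a full overlap (log2 fold change 0.03, adjusted p = 0.91, negative with library totals and upper-quartile normalization). Id1 and Id2 also overlapped, with log2 fold changes of 0.45 and 0.08 (adjusted p = 0.28 and 0.87); without Control 0, Id1 was at 0.81 with an adjusted p of 0.025 and Id2 at -0.15. Tgfbi, a TGF-β-induced matrix protein, was at 3.12 to 9.37 FPKM in control and 1.85 to 7.64 in GOF (log2 fold change -0.19, adjusted p = 0.84). Skil, which encodes the Smad corepressor SnoN, was at 18.04 to 21.7 FPKM in all libraries (log2 fold change 0.02, adjusted p = 0.94). Both signs depended on the libraries or the normalization.

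Of 99 other genes of the pathway, 75 were tested, of which 11 were called higher, 14.7%, and 6 lower, 8.0%, against 6.69% and 5.64% of all genes. The 25 intracellular regulators among them, such as Smurf1, Ski and Tgif1, held 0 calls by edgeR with TMM and its filter on low counts, against 12.3% of all genes. An unadjusted p under 0.05 was reached by 8 of the 25, and by at least 5309 of the 15462 genes tested. Of the 8, 1 gene, Map3k7, was past the adjusted p alone. Tgif2, named after its values were seen, had a log2 fold change of -1.01 and an adjusted p of 0.055, and it was called lower by DESeq2 and, in edgeR, under either other normalization, with the FPKM filter and without Control 0. Of 16 target genes tested, 3 were called higher, 18.8%, and 2 lower, 12.5%, against the same shares of all genes. A further 2 passed the adjusted p alone, and 9, Col1a1 among them, did not pass it. Of the called target genes, Cdkn2b, a cell cycle inhibitor induced by TGF-β, was at 31.4 ± 10.7 FPKM (SD, n = 3) in control and 129 ± 58.9 in GOF (log2 fold change 2.01, adjusted p = 0.010). Msx2, a BMP-responsive homeobox gene, rose by 2.61 on the log2 scale (adjusted p = 0.0016) and Sox9, a chondrogenic factor, fell by 2.30 (adjusted p = 0.0042). Among antagonists and matrix modulators, Crim1 rose (log2 fold change 1.16, adjusted p = 0.012), and the TGF-β coreceptor Cd109 rose by 1.25 on the log2 scale (adjusted p = 5.0e-04). Aspn, which binds TGF-β, went from 371 ± 89.2 to 32.7 ± 6.90 FPKM (log2 fold change -3.51, adjusted p = 1.4e-04), and the related proteoglycan Dcn from 1058 ± 103 to 330 ± 105 (log2 fold change -1.67, adjusted p = 0.0058). Without GOF 0, Crim1 had an adjusted p of 0.0504, and 7 of these genes were called higher in place of 11. Without Control 1 or GOF 1, 3 were called lower in place of 6. Also called were Bmp8a, Bmp8b, Mstn, Itgb6 and Lrrc32 higher, and Fbn1, Itgb8 and Col1a2 lower. For Lrrc32 the groups overlapped, with GOF 2 below Control 2, and the call was lost without Control 0, Control 1, GOF 0 or GOF 1. Itgb8 was at most 0.501 FPKM in any library, and its call was lost without any library other than GOF 2. Those of Bmp8a, Mstn, Fbn1 and Col1a2 were also lost when some of the libraries were left out. With the animal as a block, the log2 fold changes of Fbn1 and Col1a2 were -0.87 and -0.88 and neither was called. Bmp8a and Bmp8b are related genes, and whether fragments were split between them was not tested.

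Of the marker lists of other cell types, 1 had sums that did not overlap between the groups. The 5 adipocyte markers summed to 58.0, 120 and 227 FPKM in Control 0, 1 and 2 and to 18.1, 7.63 and 6.25 in GOF, made up of Lpl and Fabp4, both called lower, while the defining markers Adipoq, Plin1 and Cidec had at most 3 fragments in any library. In Control 0, 1 and 2 the order of this sum was that of Lpl (49.0, 112 and 220 FPKM), while Fabp4 ran the other way (8.88, 7.71 and 7.17 FPKM). Gdf10 and Tgfbr3 had the same order among the controls as Lpl, with Control 0 lowest and Control 2 highest, and so did Grem1 and Ltbp1, which were higher in GOF. The order was not particular to these genes, since Tgfb3, Inhba, Inhbb, Bmpr1a, Smad4 and Id2, among others, had it too. What part such differences between the control cultures had in the results of the members was not tested. Of 8 endothelial markers, with sums of 4.53 to 4.75 FPKM in control and 3.64 to 7.48 in GOF, Kdr and Esam were called higher and Tek lower, and of 7 macrophage markers, with sums of 10.8 to 20.1 and 8.65 to 25.2 FPKM, Csf1r was called higher.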

How the data were processed

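Stranded, paired-end RNA libraries were made from 6 cultures, 3 per group. According to the paper and labels, the authors used TopHat for alignment to mm10 and Cuffdiff for quantification, and the strand setting of the latter is not given in the sources used here. The estimated counts were deposited by the authors as unscaled fragments per gene and library. The FPKM values were deposited by the authors after scaling by transcript length and library. Another 2 columns of scaled fragments per library were not used, and the lncRNA table was not analysed here. Gene identifiers were matched to GENCODE M21 (97.9% of the table). A failed estimate in a library removed 32 genes, among them Thbs1 of the other pathway genes, and Gdf1 was not matched. Of the estimated counts, 4.95% were not whole and all were rounded.

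Counts were tested in R 4.3.3 with edgeR 4.0.16 (TMM, filterByExpr, quasi-likelihood test, Benjamini-Hochberg adjustment over 15462 genes), with calls at a fold change above 2 and an adjusted p below 0.05. The code was tested on simulated data. Levels were compared as FPKM. For each of the 15 called members an exact two-sided permutation test of mean FPKM gave p = 0.1, the smallest that 3 against 3 libraries allow. Like the main edgeR test, it took no account of the shared animals. Alternatives were DESeq2 1.42.0, library totals, upper-quartile normalization, no filter, FPKM of at least 1 in 3 libraries, limma 3.58.1 on log2(FPKM + 1) and log2(FPKM + 0.1), replicate blocks, and each library left out. The animal numbers in the labels pair Control 2 with GOF 0 and Control 0 with GOF 2, and deviations from the group means correlated at 0.46 and 0.41 across genes within these pairs and at -0.44 to 0.12 in the others. With the animal as a block, 1 residual degree of freedom among samples is left. The replicate numbers of the labels share no animal.

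Members and gene lists were chosen with earlier results of these data known, so no test over a list was made. Members past both thresholds are given in full, those past the adjusted p alone with their fold change, and at most 10 other pathway genes, by smallest adjusted p, with values; some of them are not reported here. Motifs were searched in RefSeq promoters (GRCm38.p6).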

Additional observations from a re-analysis of the deposited data

How the results depend on the processing

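The members called higher numbered 7 to 10 and those called lower 4 to 7 over the 15 alternatives, of which 6 leave out a library. Of 223 log2 fold changes of the 15 called members under an alternative, 208 kept direction and call, 15 kept direction only, and 0 changed sign. The FPKM of the groups do not overlap for these members, so leaving out a library cannot reverse the difference in mean FPKM. The unchanged signs in those fits therefore give no further support. The lost calls were of Bmp2, Bmp3 and Bambi with limma on log2(FPKM + 1), of Bmp3, Tgfbr3 and Grem1 with the replicate block by label number, and of Gdf10, Tgfbr3 and Grem1 when a library was left out. With limma on log2(FPKM + 1), 877 genes of the table and 7 other pathway genes higher were called, since a pseudocount of 1 shrinks the changes of low genes. The count of other pathway genes lower was 3 with the replicate block by label number, whose numbers share no animal. It ranged from 3 to 7 with a library left out, and that of those higher from 7 to 13. The median log2 fold change of the members ranged from -0.069 to 0.058 with a library left out. The replicate block by animal called 2008 genes, 10 members higher with Ltbp1 added and 6 lower; it took Col1a2 and Fbn1 out of the calls, added Lum and Pdgfra of the fibroblast markers, Acvr1 and Map3k7 to an adjusted p above 0.05, and changed no other call given in the report.

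Sign changes were limited to 12 members that were not called. With the replicate block by animal, Tgfb3 was at 0.076, Acvrl1 at 0.12 and Skil at -0.097. With library totals, Smad2 was at -0.013, Smad4 at -0.028, Id3 at -0.0047 and Skil at -0.025, and with upper-quartile normalization at -0.022, -0.033, -0.020 and -0.035. With a library left out, the log2 fold change ranged from -0.34 to 0.049 for Tgfb3, -0.10 to 0.78 for Bmp4, -0.22 to 0.036 for Acvrl1, -0.086 to 0.75 for Acvr2b, -0.0032 to 0.63 for Eng, -0.12 to 0.61 for Fstl3, -0.0068 to 0.064 for Smad2, -0.079 to 0.13 for Smad4, -0.15 to 0.31 for Id2, -0.12 to 0.21 for Id3, -0.50 to 0.23 for Tgfbi and -0.12 to 0.13 for Skil. With 3 cultures a group, the calls of members whose libraries vary several fold, such as Grem1 and Tgfbr3, depended on single libraries.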
